A study of Mus musculus with 4 samples.

Results

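The genes described here are 46 of 18194 mouse genes that were higher 1 h after low-intensity pulsed ultrasound (LIPUS). At 0.5 h they were below a smaller set difference from the control. They were chosen by their measured values: the 1 h array minus the control array had to reach a log2 difference of 0.585, or 1.5-fold, and the 0.5 h array minus the control array had to be below 0.3. Klf10, Fmod, Neat1, Arntl, Hpgd and Slc5a3 were left out by name, and of these 6 only Klf10 met both cut-offs. The differences at 0.5 and 1 h are therefore a description of how the genes were picked, and nothing is supported with them. The 3 h array and the other probe sets of the same genes were not used in the choice, although they share the control array or all of the arrays with it.

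The samples were ST2 cells, an immortal fibroblast-like stromal line from the bone marrow of BALB/c mice. LIPUS is a mild mechanical stimulus used clinically on healing fractures. The LIPUS groups received 25 mW/cm2 for 20 min and were kept at 37°C for 0.5, 1 or 3 h afterwards, and the control group was cultured at 37°C without a stated LIPUS dose or a stated time of harvest. All groups were grown in RPMI medium with 10% serum under 5% CO2. Each group was 1 Affymetrix mouse expression array of total RNA, 4 arrays in all, and the labels do not say whether the arrays came from separate cultures. With 1 array per group no difference could be tested, and time in culture, handling and LIPUS cannot be told apart.

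Cells answer a stimulus in waves. Immediate-early genes are transcribed without new protein synthesis and are often shut off quickly. Delayed genes follow, and many encode transcriptional repressors, feedback regulators and secreted proteins. In stromal cells, which can form bone, cartilage and fat cells, several delayed regulators also take part in the choice of lineage. The need for new protein synthesis was not examined in these samples, so the members cannot be assigned to either class.

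Promoter sequence is shown for 7 members, 6 transcription factors and the adaptor Irs1, because they span the courses seen later: Snai1, Junb, Dlx2 and Cebpb were near or below the control at 3 h, and Gata3, Hoxa5 and Irs1 stayed above it. Each line gives the 250 bases upstream of the RefSeq transcription start, 5′ to 3′ on the gene's strand, in build GRCm38.p6. Capitals mark TGACG, the core of the cyclic AMP response element (CRE), or CACGTG, the E-box, on either strand.
Snai1 (chr2:167537945-167538194, plus strand): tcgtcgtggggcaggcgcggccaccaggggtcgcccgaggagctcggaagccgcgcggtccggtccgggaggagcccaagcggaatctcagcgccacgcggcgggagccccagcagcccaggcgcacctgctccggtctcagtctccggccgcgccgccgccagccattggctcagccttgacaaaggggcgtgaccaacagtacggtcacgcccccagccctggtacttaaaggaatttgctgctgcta
Junb (chr8:84978749-84978998, minus strand): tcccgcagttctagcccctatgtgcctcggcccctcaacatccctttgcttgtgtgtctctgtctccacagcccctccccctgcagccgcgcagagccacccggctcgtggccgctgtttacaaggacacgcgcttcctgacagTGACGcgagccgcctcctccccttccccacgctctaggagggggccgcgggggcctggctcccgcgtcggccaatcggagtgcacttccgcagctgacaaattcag
Dlx2 (chr2:71546755-71547004, minus strand): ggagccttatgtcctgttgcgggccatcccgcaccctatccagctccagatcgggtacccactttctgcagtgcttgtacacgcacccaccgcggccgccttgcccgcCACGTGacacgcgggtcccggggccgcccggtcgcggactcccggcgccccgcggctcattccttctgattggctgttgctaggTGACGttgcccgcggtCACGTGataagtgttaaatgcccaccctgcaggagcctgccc
Cebpb (chr2:167688665-167688914, plus strand): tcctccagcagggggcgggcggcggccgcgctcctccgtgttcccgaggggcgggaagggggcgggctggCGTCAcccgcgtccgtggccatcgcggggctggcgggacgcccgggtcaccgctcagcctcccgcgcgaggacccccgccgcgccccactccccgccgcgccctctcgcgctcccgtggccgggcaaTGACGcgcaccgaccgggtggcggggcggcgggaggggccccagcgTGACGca
Gata3 (chr2:9878601-9878850, minus strand): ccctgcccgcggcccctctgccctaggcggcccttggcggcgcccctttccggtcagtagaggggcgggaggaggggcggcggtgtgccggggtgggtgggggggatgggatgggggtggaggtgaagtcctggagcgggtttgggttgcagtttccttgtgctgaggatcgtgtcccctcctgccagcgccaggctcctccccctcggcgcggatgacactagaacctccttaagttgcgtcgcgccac
Hoxa5 (chr6:52204588-52204837, minus strand): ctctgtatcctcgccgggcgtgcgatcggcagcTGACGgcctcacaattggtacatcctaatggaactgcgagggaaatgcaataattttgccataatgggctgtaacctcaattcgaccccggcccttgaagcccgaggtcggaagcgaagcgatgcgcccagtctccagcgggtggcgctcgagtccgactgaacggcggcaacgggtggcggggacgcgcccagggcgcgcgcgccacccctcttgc
Irs1 (chr1:82291440-82291689, minus strand): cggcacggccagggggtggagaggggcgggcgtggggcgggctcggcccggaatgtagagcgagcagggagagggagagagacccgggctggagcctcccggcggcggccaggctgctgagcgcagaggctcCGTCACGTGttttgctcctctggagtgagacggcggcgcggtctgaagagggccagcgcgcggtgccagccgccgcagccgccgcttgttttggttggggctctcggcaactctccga
Junb held 1 CRE core, beginning at position -106 from its start, and Hoxa5 held 1 at -217. Cebpb held 3, at -180, -53 and -7. Dlx2 had E-boxes at -142 and -42 and a CRE core at -58. In Irs1 a CRE core at -118 overlapped an E-box at -115. Snai1 and Gata3 had no match to any of the 10 motifs searched.

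Promoter windows were matched for 34 members, with 41 windows in all, and both strands were searched. The CRE core was present in 14 of the 34 (41.2%), against 30.3% of 9450 genes above the floor and 19.8% of all 27025 genes with a window. CACGTG was present in 5 (14.7%), against 10.0% of genes above the floor and 6.86% of all genes. The full CRE, TGACGTCA, which contains the core, was in none of the 34 members, against 3.02% of genes above the floor and 1.77% of all genes. AP-1 sites (TGANTCA, N being C or G) were in none of the members, against 3.97% of genes above the floor and 5.16% of all genes. EGR sites (GCGNGGGCG, N being G or T) were in none of the members, against 6.66% of genes above the floor and 3.47% of all genes. D-boxes (TTANGTAA, N being C or T) were in none of the members, against 0.720% of genes above the floor and 1.10% of all genes. The serum response element was in 1 member, Filip1l (1.41% of genes above the floor, 1.62% of all genes), the NF-kB site in Sbno2 (5.46% and 4.46%), and the heat shock element (GAANNTTCNNGAA, N being any base) in Kctd18 (0.444% and 0.514%). The TATA box TATAAA was in 2 members (5.88%), Otor and Rpgrip1, against 7.97% of genes above the floor and 14.3% of all genes. A match is a run of letters and not a bound site.

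**Figure D1:**
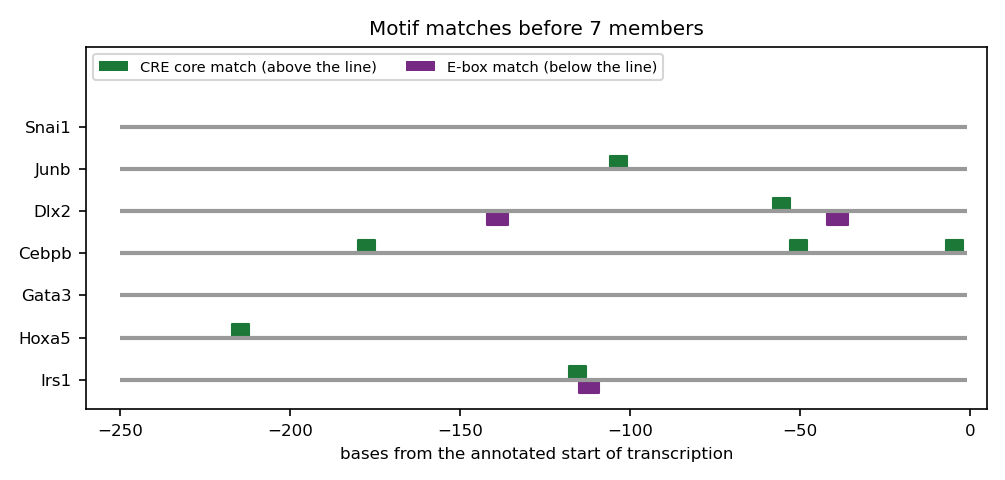
Matches to the CRE core (above each line) and the E-box (below it) in the 250 bases upstream of the start of the 7 genes printed above, by distance from the start in bases (horizontal) and gene (vertical). Cebpb has 3 CRE cores, Dlx2 has 2 E-boxes and 1 CRE core, and Snai1 and Gata3 have no match.

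One member, Dleu2, is a long noncoding RNA whose span holds the miR-15a and miR-16-1 hairpins, so its mature miRNAs are shown although the arrays did not measure them. Both 5p miRNAs have the seed AGCAGCA, bases 2 to 8, in capitals.
mmu-miR-16-5p (chr14:61631936-61631957, minus strand): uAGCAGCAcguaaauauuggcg
mmu-miR-15a-5p (chr14:61632075-61632096, minus strand): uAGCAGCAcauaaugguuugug

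Signals are the authors' log2 values of a gene's brightest probe set, and each difference is an array minus the control on that scale. Values under 5.23, the median of all values, were raised to it, and a gene counted as measured when either array of a comparison exceeded this floor. Of 11498 genes measured at 1 h or in the control, 109 (0.948%) were at least 1.5-fold higher at 1 h and 38 (0.33%) at least 1.5-fold lower. Both cut-offs together were met by 47 genes (0.409%), the 46 members and Klf10. The opposite pattern, at least 1.5-fold lower at 1 h with 0.5 h above -0.3, was met by 19 genes (0.165%). The other 62 genes past 1.5-fold at 1 h were already at least 0.3 higher at 0.5 h. In the control, 10 of 11 stromal markers with a probe set were above the floor (Thy1 was not), against 3 of 7 haematopoietic and 1 of 5 endothelial markers, with Ptprc and Pecam1 under it. None of the measured markers was 1.5-fold different at 1 h. In a bulk sample, fewer cells of a type and less RNA per cell cannot be told apart.

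**Figure D2:**
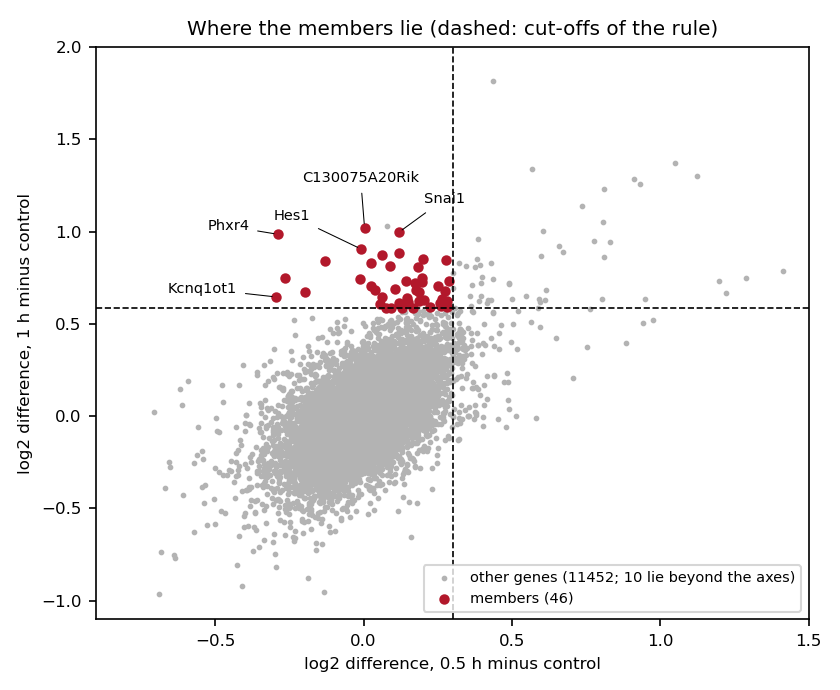
Log2 difference at 0.5 h (horizontal) and at 1 h (vertical) from the control, 1 point per gene, members in red, other measured genes in grey, cut-offs dashed. Members reach 1.02 at 1 h, and Phxr4 and Kcnq1ot1 lie near -0.29 at 0.5 h.

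The members ran from 0.59 to 1.02 at 1 h with a median of 0.68, from -0.29 to 0.29 at 0.5 h with a median of 0.14, and from -0.21 to 0.88 at 3 h with a median of 0.39. Medians over all measured genes were 0.02 at 1 h and 0.01 at 0.5 and 3 h. By role the members comprised 13 transcriptional regulators, 8 signalling proteins, 5 matrix or adhesion proteins, 4 enzymes or transporters, 6 noncoding or pseudogene transcripts and 10 others. Between probe sets of the same gene, the SD of a difference from the control was 0.16 at 1 h over 5073 genes, 0.11 at 0.5 h and 0.14 at 3 h. This measures disagreement between probes on 1 array, not between cultures.

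**Figure D3:**
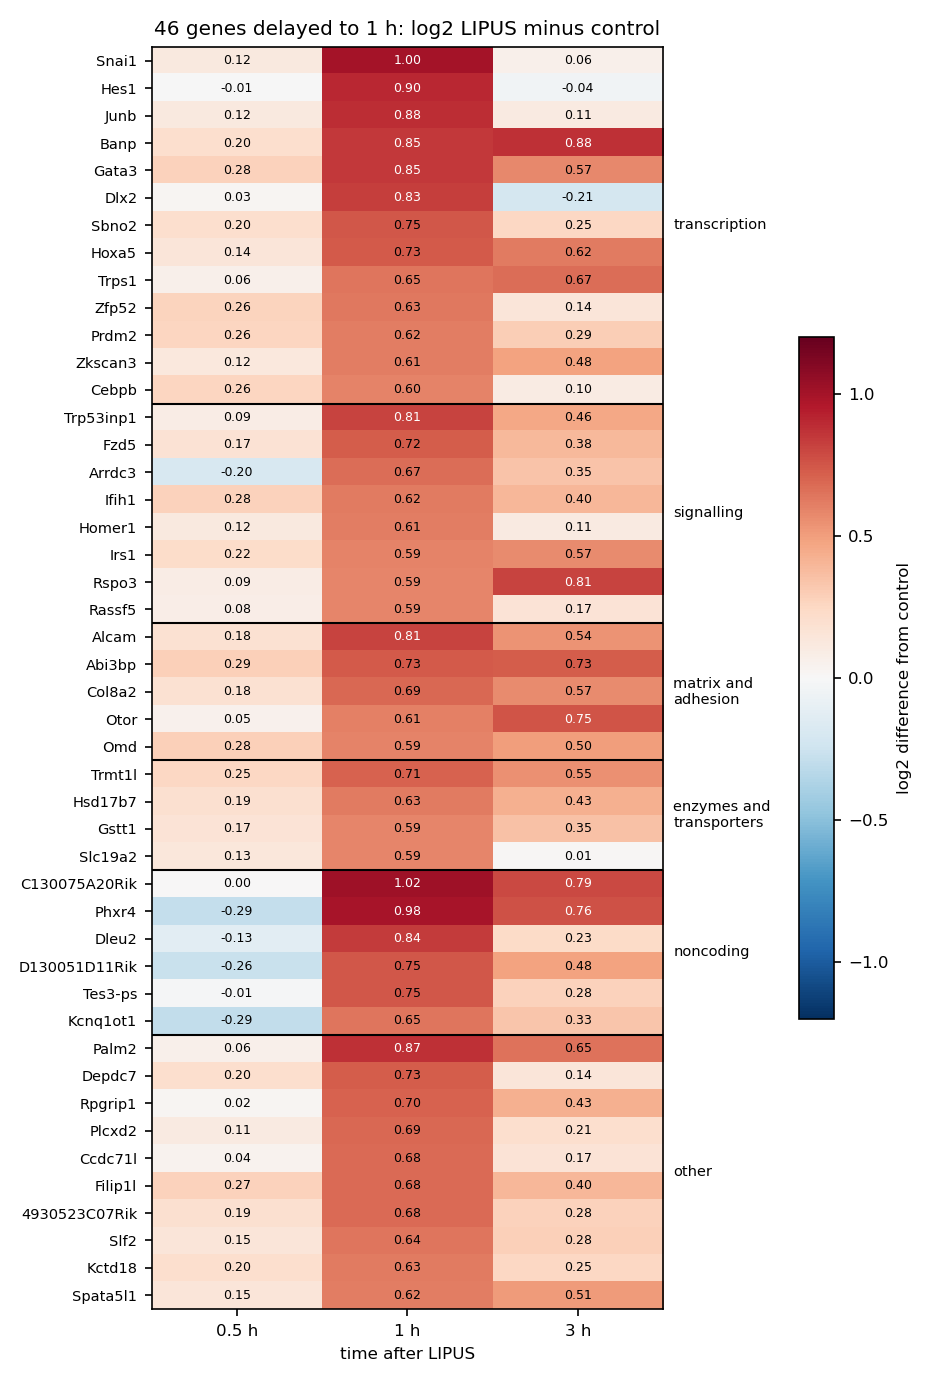
Log2 difference from the control of the 46 members (rows, grouped by role) at 0.5, 1 and 3 h after LIPUS (columns), with the value printed in each cell. Snai1, Hes1, Junb and Dlx2 are dark only at 1 h, whereas Banp, Rspo3 and Otor are as dark or darker at 3 h.

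Of the 13 transcription factors, 6 peaked at 1 h and were within 0.21 of the control at 3 h: Snai1, Hes1, Junb, Dlx2, Cebpb and Zfp52. Snai1, the zinc finger repressor of E-cadherin, measured 7.88 (log2 signal) in the control and 8.002, 8.88 and 7.94 at 0.5, 1 and 3 h after LIPUS. Hes1, a basic helix-loop-helix repressor and Notch target, had 7.90 in the control and 7.89, 8.80 and 7.85 at 0.5, 1 and 3 h. Junb, a subunit of AP-1, had 8.22 in the control and 8.34, 9.10 and 8.32. Only the 1 h array stood apart in each of these 3 genes. The homeobox factor Dlx2, known in forebrain and craniofacial development, had 6.28 in the control and 6.30, 7.11 and 6.07 at 0.5, 1 and 3 h. Its 3 h signal was 0.21 below the control. From 1 to 3 h the change was -0.93 (Snai1), -0.95 (Hes1), -0.78 (Junb) and -1.04 (Dlx2).

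Cebpb, a leucine zipper factor of the early steps of fat cell formation, was the brightest member, with 10.36 in the control and 10.62, 10.96 and 10.45 at 0.5, 1 and 3 h. Zfp52, a zinc finger protein, differed from the control by 0.26, 0.63 and 0.14. Sbno2, a transcriptional coregulator, differed by 0.20, 0.75 and 0.25. Prdm2, a zinc finger protein with a histone methyltransferase domain, differed by 0.26, 0.62 and 0.29. All 4 genes were below 0.3 again at 3 h.

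The other 5 transcriptional regulators kept most of the difference on their brightest probe sets. Banp, a nuclear DNA-binding protein, had 7.21 in the control and 7.41, 8.06 and 8.09 at 0.5, 1 and 3 h, the largest 3 h difference of the 46, 0.88. Trps1, an atypical GATA-type repressor needed for normal cartilage, had 8.31 in the control and 8.38, 8.96 and 8.99. Hoxa5, a homeobox factor of body patterning, had 6.73 in the control and 6.87, 7.46 and 7.35. These 3 genes were past 1.5-fold at 3 h. Gata3, a zinc finger factor best known from T cells and mammary epithelium, had 6.32 in the control and 6.60, 7.16 and 6.89. Zkscan3, a repressor of autophagy genes, differed by 0.12, 0.61 and 0.48 at 0.5, 1 and 3 h. Its next-brightest probe set was at 0.01, 0.24 and 0.01 at these times, and its dimmest at 0.00, 0.23 and 0.00.

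The signalling members include parts of the Wnt pathway. Rspo3, a secreted amplifier of Wnt signals, had 8.08 in the control and 8.17, 8.67 and 8.89 at 0.5, 1 and 3 h, and was highest at 3 h. Fzd5, a Wnt receptor, had 7.90 in the control and 8.07, 8.62 and 8.29. Irs1, which links the insulin and IGF-1 receptors to downstream kinases, had 10.17 in the control and 10.40, 10.77 and 10.74, so its 1 and 3 h arrays were almost equal. Trp53inp1, a stress protein induced by p53, differed by 0.09, 0.81 and 0.46. Arrdc3, an alpha-arrestin that routes receptors for degradation, was 0.20 below the control at 0.5 h and 0.67 and 0.35 above it at 1 and 3 h. It was the only signalling member below the control at 0.5 h. Ifih1, a cytosolic sensor of double-stranded RNA, differed by 0.28, 0.62 and 0.40. Homer1, a scaffold of glutamate receptors, and Rassf5, a Ras effector, were only 0.11 and 0.17 above the control at 3 h, having been 0.61 and 0.59 above it at 1 h.

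All 5 matrix and adhesion members were at least 0.50 above the control at 3 h, the highest median of any role at that time, 0.57. Abi3bp, a secreted matrix protein, had 7.80 in the control and 8.09, 8.53 and 8.53 at 0.5, 1 and 3 h. Otor, a small secreted protein first known from the cochlea, had 5.76 in the control and 5.81, 6.36 and 6.51. Col8a2, a chain of type VIII collagen, had 6.15 in the control and 6.33, 6.84 and 6.72. Each of these genes was no more than 0.12 lower at 3 h than at 1 h. Omd, or osteomodulin, a leucine-rich proteoglycan of bone, differed by 0.28, 0.59 and 0.50. Alcam, a cell adhesion molecule of the immunoglobulin family, lay under the floor in the control, so its differences of 0.18, 0.81 and 0.54 are lower bounds and the 1 h level was at least 1.75-fold higher.

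Among the enzymes and transporters, Slc19a2, a thiamine transporter, was 0.59 above the control at 1 h and 0.01 above it at 3 h. Trmt1l, a tRNA methyltransferase-like protein, differed by 0.25, 0.71 and 0.55 at 0.5, 1 and 3 h. Hsd17b7, an enzyme of cholesterol synthesis, differed by 0.19, 0.63 and 0.43, and the glutathione transferase Gstt1 by 0.17, 0.59 and 0.35.

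The noncoding members were the lowest of all roles at 0.5 h. Of the 6, 5 were below the control at 0.5 h, with a group median of -0.20, and all 6 stepped up at least 1.5-fold between 0.5 and 1 h, with a median step of 0.99. Such a step was reached by 19 of the 46 members and 0.348% of all genes. The choice favoured a low 0.5 h and a high 1 h array, so the step was fixed in part and is a description. Phxr4 had 5.63 in the control and 5.34, 6.61 and 6.39 at 0.5, 1 and 3 h, a step of 1.27. Kcnq1ot1, the imprinted antisense RNA that silences its neighbours, had 6.39 in the control and 6.10, 7.04 and 6.73. D130051D11Rik had 6.28 in the control and 6.02, 7.03 and 6.77. All 3 were at or above 0.33 at 3 h and at or below -0.26 at 0.5 h. C130075A20Rik, the member with the largest 1 h difference, had 5.51 in the control and 5.52, 6.53 and 6.30. Dleu2 had 5.87 in the control and 5.74, 6.71 and 6.10, losing 0.61 between 1 and 3 h. The pseudogene Tes3-ps differed by -0.01, 0.75 and 0.28. These were dim transcripts, with a median control signal of 5.75, against 7.06 over all members. Probe positions were not examined, so a signal from an overlapping transcript cannot be told apart.

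In the remaining 10 members, Palm2, a paralemmin, had 7.05 in the control and 7.11, 7.92 and 7.70, and was the only one past 1.5-fold at 3 h. Filip1l, which is related to a filamin-interacting protein, had 9.60 in the control and 9.87, 10.27 and 9.99. Rpgrip1, a protein of the photoreceptor cilium, differed by 0.02, 0.70 and 0.43, and Slf2, which helps recruit the SMC5/6 complex to damaged DNA, by 0.15, 0.64 and 0.28. Plcxd2, Ccdc71l, 4930523C07Rik and Kctd18 were 0.63 to 0.69 above the control at 1 h and 0.17 to 0.28 above it at 3 h. Depdc7 and Spata5l1 were under the floor in the control, and were at least 1.65-fold and 1.53-fold higher at 1 h. Without the floor Spata5l1 was already 0.44 above the control at 0.5 h and did not meet the cut-off, so its place among the members depends on the floor.

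The 3 h array was not used to choose the members. At 3 h, 9 of the 46 were at least 1.5-fold above the control, against 40 of 11575 measured genes (0.346%), and 44 were above it by any amount, against 52.2%. The 9 were Banp, Rspo3, C130075A20Rik, Phxr4, Otor, Abi3bp, Trps1, Palm2 and Hoxa5. Another 18 lay between 0.3 and 0.585, and 19 were below 0.3, of which 8 were within 0.15 of the control. Of the 11575 measured genes, 442 lay between 0.3 and 0.585, 11093 were below 0.3 and 7640 were within 0.15. A value below 0.3 was thus the usual one over all genes. Members were selected partly for a control signal that was low relative to the 1 h array, and 3 h minus control uses that same control array. By role, 8 of 13 transcription factors were below 0.3 at 3 h, as were 6 of 10 other members, 2 of 6 noncoding members, 2 of 8 signalling members, 1 of 4 enzymes and transporters and 0 of 5 matrix members. No test between roles was possible.

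**Figure D4:**
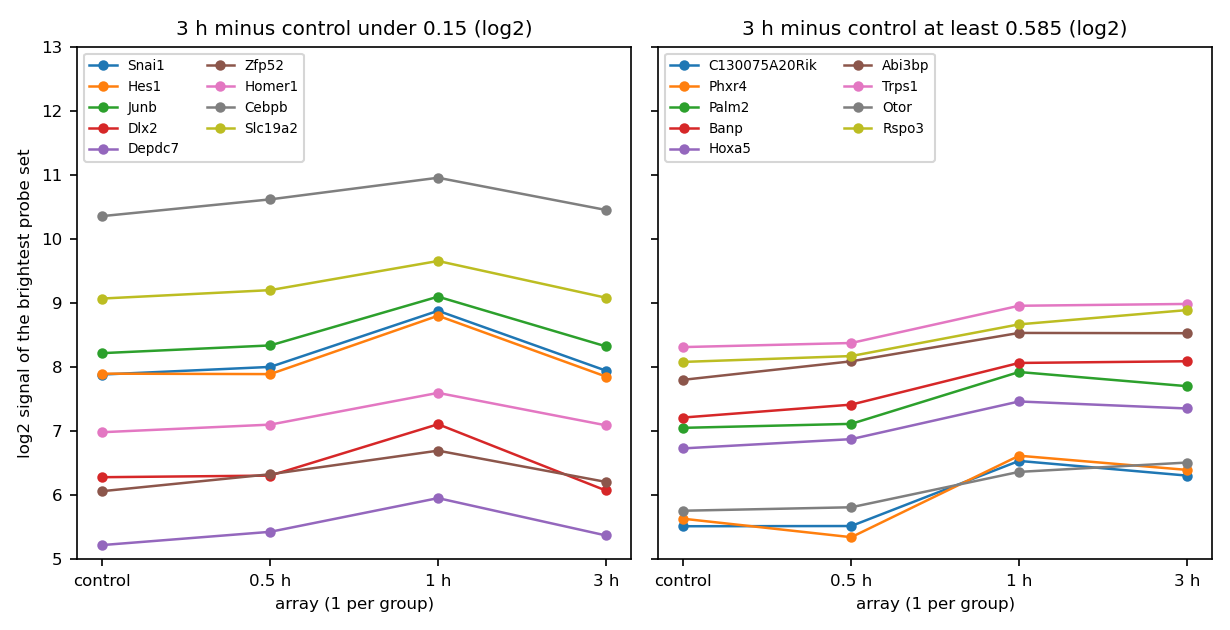
Log2 signal of the brightest probe set on each array (1 array per group, control at left) for the 9 members under 0.15 above the control at 3 h (left panel) and the 9 at least 1.5-fold above it (right panel). Left-panel genes peak at 1 h, and 4 in the right panel, Rspo3, Otor, Banp and Trps1, are highest at 3 h.

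Choosing genes for a high 1 h array pushes 3 h minus 1 h downward, so the next counts are a description. From 1 to 3 h, 42 members were lower at 3 h (54.7% of all genes were) and 5 were at least 1.5-fold lower, namely Snai1, Hes1, Junb, Dlx2 and Dleu2 (0.452% of all genes were). The median change was -0.29. The 62 genes already higher at 0.5 h had a median change of -0.56, with 30 at least 1.5-fold lower. Their median difference from the control ran 0.60, 0.82 and 0.39 over the 3 times, and the last median was close to that of the members. The step from 0.5 to 1 h, which uses no control array but was fixed in part by the choice, reached 1.5-fold in 19 members (0.348% of all genes). The choice also favoured a low 0.5 h array, which pushes differences from that array upward. Measured from it, 37 members were higher at 3 h (47.8% of all genes) and 9 were at least 1.5-fold higher (0.233%), with a median of 0.26.

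Other probe sets of the same genes gave weaker differences. Of the 26 members with more than 1 probe set, 19 had a next-brightest one above the floor, and 2 of the 19 (10.5%) were at least 1.5-fold higher at 1 h: Kcnq1ot1 at 0.66 and Abi3bp at 0.63. The share over all genes with such a probe set was 0.869% of 5294. The difference was above 0 in 16 of the 19, against 53.6% of all genes. The median was 0.24, against 0.65 for the brightest probe sets of these genes, and the 62 genes already higher at 0.5 h had 0.61 and 0.85. Among those genes 15 of 29 next-brightest probe sets (51.7%) reached 1.5-fold. In the members and in the 62 genes alike, the brightest probe sets had been selected for a high 1 h value and the next-brightest ones had not. Why the next-brightest probe sets of the members were weaker was not tested.

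Of the 19, 9 lay between 0.2 and 1.5-fold, including Cebpb at 0.43, Plcxd2 at 0.38, Slc19a2 at 0.37 and Trps1 at 0.24. Another 8 were below 0.2: Prdm2 at 0.15, Homer1 and Kctd18 at 0.08, Fzd5 at 0.05, Trmt1l at 0.03, Palm2 at 0.00, Hoxa5 at -0.04 and Sbno2 at -0.06. Except in Homer1, these genes passed 1.5-fold on 1 probe set alone. The next-brightest probe sets of Fzd5, Trmt1l, Sbno2, Palm2 and Kctd18 were near the floor of 5.23, at 5.41 to 5.73 in the control. Those of Homer1, Hoxa5 and Prdm2 were at 6.14, 6.41 and 6.95. Whether such dim probe sets could have shown a difference was not tested. Ranked further down, Trps1 had a probe set at 1.14, and Homer1 and 4930523C07Rik had ones at 0.60 and 0.61, while Slc19a2 had one at -0.28. At 3 h the median of the 19 was 0.01, against -0.01 over all genes with such a probe set. The remaining 20 members had only 1 probe set, among them Snai1, Hes1 and Junb. Of the 9 members past 1.5-fold at 3 h, Banp, C130075A20Rik, Phxr4 and Otor also had only 1. At 3 h the next-brightest probe sets of Abi3bp, Trps1, Palm2 and Hoxa5 were at 0.54, 0.39, 0.35 and -0.02, none past 1.5-fold. That of Rspo3 was under the floor.

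**Figure D5:**
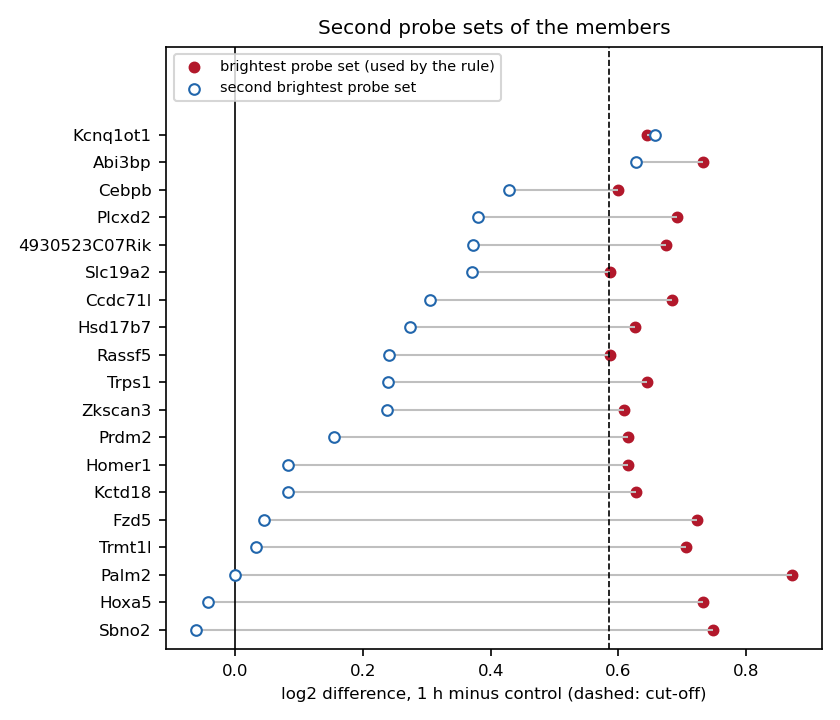
Log2 difference at 1 h from the control for the brightest and the next-brightest probe set of the 19 members with both above the floor. Only Kcnq1ot1 and Abi3bp pass 1.5-fold on both, and Hoxa5 and Sbno2 are below 0 on the next-brightest.

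Relatives of the members were compared by family; the families were drawn up after the members' values were seen. In the JUN family Jun was 0.95, 0.63 and -0.01 from the control at 0.5, 1 and 3 h, already higher at 0.5 h, when Junb was at 0.12, while Jund was at -0.34, -0.28 and -0.36. In the SNAI and ZEB family 1 of 5 measured genes was past 1.5-fold at 1 h, Snai1, with Snai2, its relative in mesenchymal cells, at 0.28, Zeb2 at 0.13, Zeb1 at -0.03 and Snai3 at -0.14. Of the Notch pathway 1 of 14 was past it, Hes1, with the ligand Jag1 at 0.48 and the receptors Notch1 at 0.28 and Notch2 at 0.33. The pathway's median was 0.11, the related target genes Hey1 and Heyl were at 0.09 and -0.29 and the ligands Dll1 and Jag2 at 0.06 and -0.02. The modifiers Rfng, Lfng and Mfng were at 0.23, 0.02 and -0.17, and Lfng was at -0.71 at 0.5 h. The coactivators Maml1 and Maml2 were at 0.25 and -0.13 and Rbpj at 0.13. Of 4 DLX genes only Dlx2 was past it, with Dlx5, a factor of bone formation, at 0.38, Dlx1 at 0.33 and Dlx3 at -0.37. Cebpd and Cebpg were both at 0.30 and Cebpa at -0.12, so Cebpb was 1 of 4. Hoxa5 was 1 of 5 measured HOXA genes past 1.5-fold, with Hoxa9 at 0.33, Hoxa10 at 0.23, Hoxa7 at 0.01 and Hoxa3 at -0.29. Of 5 measured GATA and TRPS genes 2 were past it, Gata3 and Trps1. Gata6 was at -0.07, Gata4 at -0.15 and Gata2 at -0.16, and the family median was -0.07. Hes1 was 1 of 6 measured HES and HEY genes, whose median was -0.04. In that family Hes6 was at 0.22, Hes3 at -0.17 and Hes7 at -0.31. Ogn, a small leucine-rich proteoglycan like Omd, was at 0.19, 0.52 and 0.58 at 0.5, 1 and 3 h, while Bgn and Prelp were at -0.13 and -0.04 at 1 h. Fzd5 was 1 of 8 Frizzled receptors, whose median was 0.04, and Rspo2 was at 0.01 at 1 h. Irs2 was at 0.45 at 1 h and -0.16 at 3 h, where Irs1 was at 0.57. Of the alpha-arrestins, Txnip was at 0.61, 0.63 and 0.59, already higher at 0.5 h, when Arrdc3 was at -0.20, and Arrdc1 and Arrdc4 were at 0.00 and -0.19 at 1 h.

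In 23 wider lists, 5 held a member. Over all measured genes, 0.948% were at least 1.5-fold higher at 1 h and 0.33% lower, and the members in a list were chosen for being higher, so part of each count was fixed. Of the AP-1 and ATF factors 4 of 16 were at least 1.5-fold higher at 1 h and 0 lower, with a list median of 0.05. Of the C/EBP and PAR factors 2 of 8 were higher and 1 lower (median 0.22). Of 30 homeobox genes 4 were higher and 0 lower (median 0.12), the members Dlx2 and Hoxa5 with Hoxb6 at 1.05 and Hoxc6 at 0.62. Of 21 helix-loop-helix factors 1 was higher, Hes1, and 0 were lower (median 0.10). Of 21 p53 targets 2 were higher, Trp53inp1 and the growth-arrest gene Btg2, at 0.89, and 0 were lower (median 0.15). Of 27 chaperone genes 9 were higher at 1 h and 0 lower (median 0.33), and none was a member.

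The members' control signals, which entered the choice, had a median of 7.06 and quartiles of 6.28 and 7.90, against a median of 8.13 over genes above the floor. Transcript type, gene length and position did not enter it. Long noncoding RNAs made up 5 of the 45 with an annotated type (11.1%), against 2.82% of genes above the floor. Median gene length was 21074 bases, against 22576 over all measured genes and 11088 for the 62 already higher at 0.5 h. Snai1 and Cebpb lie within 1 Mb of each other on chromosome 2 with 2 coding genes between them, Tmem189 and Ube2v1, which ran from -0.07 to 0.03 at 1 h. Abi3bp and Filip1l lie within 1 Mb on chromosome 16, where the 5 measured genes between them ran from -0.09 to 0.30.

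The cut-offs divided near neighbours. At 1 h Rassf5, Rspo3 and Slc19a2 were just inside at 0.59, while Tent4b at 0.58, Gcnt2 at 0.57 and Cpeb4 at 0.57 were just outside. At 0.5 h Abi3bp at 0.29 and Omd and Ifih1 at 0.28 were just inside, while Cdkn2a at 0.30, Mns1 at 0.31 and Ptx3 at 0.34 were just outside. The gap between these neighbours was smaller than the SD between probe sets of a gene. After either quantile normalization or cyclic loess, Cebpb, Gstt1, Hsd17b7, Irs1, Rassf5, Rspo3, Slc19a2 and Zkscan3 no longer met the cut-offs.

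Control probe sets on the arrays also moved with time. The 24 poly-A spike probe sets above the floor had median differences of -0.05, 0.29 and 0.39 at 0.5, 1 and 3 h, and the 3 for 18S ribosomal RNA 0.96, 1.91 and 1.79. The 18 hybridisation controls had -0.11, 0.08 and 0.02, and array medians lay between 5.21 and 5.25. The medians of the poly-A spikes, 18S RNA and hybridisation controls all rose between 0.5 and 1 h, the same direction as the members. The part of these controls' shifts in the members' differences was not tested.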

How the data were processed

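Total RNA from the 4 samples was hybridised to 1 array each. The authors deposited 1 log2 value per probe set and array. The log base was taken from the values, which ran from 1.53 to 14.48. How probes were summarised and arrays scaled is not given in these sources. Per the labels' protocols, 500 ng of RNA, of integrity number above 9.5, was labelled per array.

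Of 45101 probe sets, 34958 had 1 gene symbol, updated through Entrez numbers for 34754, and the brightest on average stood for each gene. Values under the median, 5.23, were raised to it. Differences and counts were computed with Python 3.11.15, pandas 2.3.3 and numpy 2.4.6, and alternative scalings with limma 3.58.1 in R 4.3.3. There was no test, p-value or standard error. The members and gene lists were chosen with earlier results of these data known, and the named genes were the largest and smallest differences, list members, probe-set extremes and threshold neighbours, with other names chosen after their values were seen. The calculation was tested on simulated data. Promoter and miRNA sequences are from RefSeq tables of build GRCm38.p6.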

Additional observations from a re-analysis of the deposited data

Results flagged for a closer look

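Signals outside the gene measurements stood above the control array. For 18S ribosomal RNA (3 probe sets) the median difference from the control was 1.91 at 1 h and 1.79 at 3 h on the log2 scale. The 24 poly-A spike probe sets above the floor had a median of 0.29 at 1 h and 0.39 at 3 h, and all 24 were higher than in the control at both times. Among 2107 measured probe sets without a gene symbol, 74 met both cut-offs used for the members (3.51%), with a median of 0.74 at 1 h and 0.32 at 3 h, and 10 of them were at least 1.5-fold above the control at 3 h. Of measured genes, 0.409% met both cut-offs and 0.346% were at least 1.5-fold higher at 3 h. Genes were counted by their brightest probe set and these were counted singly, so the shares are not on the same footing.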

How the results depend on the processing

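With the 6 named genes left out, the number of genes meeting the cut-offs was 46, and 50 with the floor at the 25th percentile, 54 with no floor, 51 after median centring, 35 after quantile normalization, 39 after cyclic loess and 34 with the mean of all probe sets of a gene. Quantile normalization lost 11 members and cyclic loess 8, among them Cebpb, Irs1, Rspo3 and Slc19a2 under both. Raising the floor to the 75th percentile left 19 genes that met the cut-offs, 18 of them members, the members' median at 3 h was 0.00, 3 were at least 1.5-fold higher at 3 h, the median step from 0.5 to 1 h was 0.13 and 0 next-brightest probe sets reached 1.5-fold, since that floor lies above many dim members. With the mean of all probe sets 30 of the 46 still met the cut-offs. A 1 h threshold of 1 left 1 member, and a 0.5 h threshold of 0.15 left 26. Of 644 values for named genes under these settings, 84 moved by more than the SD between probe sets of a gene. Of the 84, 54 moved under the floor at the 75th percentile. The 1 h differences of C130075A20Rik, Phxr4, Gata3 and Dlx2 became 0 there, and a value of 0 cannot change sign. None that was at least 1.5-fold from the control changed sign, but 5 smaller 3 h values did: Slc19a2 (0.01) was at -0.004 after median centring, and with the mean of all probe sets Slc19a2 was at -0.22, Homer1 at -0.10, Plcxd2 at -0.02 and Rassf5 at -0.02. Measured from the 0.5 h array, an alternative chosen after seeing the data, the 3 h median was 0.26 and 9 members were past 1.5-fold. No paired analysis was possible because each group held 1 array.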
